A study of Rattus norvegicus with 24 samples.

Results

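The 26S proteasome genes of rat quadriceps muscle were taken as the rows whose symbol begins with Psma, Psmb, Psmc, Psmd or Psme and a digit, with the interferon-inducible subunits Psmb8 and Psmb9 kept apart. The rule found 41 of the 21067 genes in the table. One of them, Psmc3ip, shares the name but encodes no known proteasome subunit. Another, Psmb11, encodes the thymus form of a catalytic subunit and had a mean of 0.0059 FPKM over the 24 libraries, so it was not tested. The tested members numbered 40 of 14772 genes tested.

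The proteasome degrades proteins marked with ubiquitin. Its 20S core has outer rings of alpha subunits (Psma genes) and inner rings of beta subunits (Psmb genes), of which Psmb5, Psmb6 and Psmb7 encode the catalytic ones. The 19S particle caps the core: a base with ATPases (Psmc genes) unfolds the substrate, and a lid (mainly Psmd genes) removes its ubiquitin. Other caps (Psme genes) replace the 19S particle. In skeletal muscle the pathway is known for its part in protein turnover and wasting.

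The rats were Sprague-Dawley, 6 weeks old when obtained and of both sexes by the study's methods, with 1 quadriceps library per rat and 6 rats per group. The control group had no treadmill training, and the treadmill group ran 7 weeks of incremental training and then to exhaustion. Catgut group 1 had catgut, an absorbable thread, embedded at the acupoints Bai Hui, Qian Shen, Qiang Feng, Yang Wa, Han Gou and Xie Qi before the same training and exhaustion. Catgut group 2 had Fei Shu in addition. Both catgut groups thus carried the same training and exhaustion as the treadmill group. Muscle was thus taken after the training weeks, at an age the sources used here do not state. The study's methods give equal numbers of males and females in each group. The labels do not give the sex of each rat, and they do not say whether libraries shared a cage, a training day or an extraction. The summed FPKM of 3 Y-linked genes had a median of 0.0239 in catgut group 2, with a maximum of 13.1. Its median was 6.9 in the control group, 5.19 in the treadmill group and 4.23 in catgut group 1. The sex of single rats was not read from these values. The median of catgut group 2 lay far below those of the other groups, so its stated balance of sexes is uncertain. A part of sex in comparisons with this group was not tested, beyond fits with the Y-linked level as a covariate.

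Total counts per library were between 45945938 and 78278080, with a median of about 75150800 in the control group and about 56332800 in catgut group 1. Acta1 and Ckm, defining skeletal muscle genes, were at least 22811 and 13319 FPKM in all 24 libraries. Ckm was not level between groups: its 14112 to 15370 FPKM in catgut group 2 lay below all treadmill libraries, at 17037 to 21536. Some libraries stood apart. Alb, a liver transcript, was above 10 FPKM in control replicate 2, treadmill replicate 2 and treadmill replicate 3, at 135, 14.3 and 226 FPKM. All 5 liver markers were lower in both catgut groups than in the treadmill group at an unadjusted p under 0.05 by edgeR. Of all genes tested, 3.49% were lower in catgut group 1 and 5.14% in catgut group 2. At the same threshold, erythroid markers were higher in the treadmill than in the control group for 4 of 5 genes, against 4.03% of all genes. The stress gene Hspa1b was at 13.2 FPKM in treadmill replicate 1, inside the control range of 7.34 to 21.1, and between 75.2 and 1051 FPKM in the other 5 treadmill libraries. The part of these differences in the results below was not tested, except as stated where a library was left out. In bulk muscle, fewer cells of a type and less RNA per cell cannot be told apart.

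The 3 members with the smallest p in catgut group 2 against the treadmill group were the alpha subunit genes Psma5, Psma2 and Psma1. Their upstream sequences, 250 bases before the annotated start in the RefSeq GRCr8 promoters and read on the gene's strand, are given because these members varied together across the libraries. Capitals mark CCAAT and GGGCGG, on either strand. The sequences lie at chr2:198584255-198584504 on the plus strand for Psma5, chr1:177887858-177888107 on the minus strand for Psma1 and chr17:55260442-55260691 on the minus strand for Psma2. The FPKM table gives coordinates in another build, which the sources used here do not name.
Psma5: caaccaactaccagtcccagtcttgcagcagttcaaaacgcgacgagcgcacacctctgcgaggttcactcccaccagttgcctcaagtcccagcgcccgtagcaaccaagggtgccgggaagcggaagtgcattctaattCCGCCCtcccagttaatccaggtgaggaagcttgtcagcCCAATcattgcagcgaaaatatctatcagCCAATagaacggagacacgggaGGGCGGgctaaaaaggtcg
Psma1: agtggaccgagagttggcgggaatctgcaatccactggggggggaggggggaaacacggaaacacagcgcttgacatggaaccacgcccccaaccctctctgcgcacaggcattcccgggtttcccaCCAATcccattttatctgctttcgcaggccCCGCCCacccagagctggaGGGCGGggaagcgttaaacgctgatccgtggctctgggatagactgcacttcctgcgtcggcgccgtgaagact
Psma2: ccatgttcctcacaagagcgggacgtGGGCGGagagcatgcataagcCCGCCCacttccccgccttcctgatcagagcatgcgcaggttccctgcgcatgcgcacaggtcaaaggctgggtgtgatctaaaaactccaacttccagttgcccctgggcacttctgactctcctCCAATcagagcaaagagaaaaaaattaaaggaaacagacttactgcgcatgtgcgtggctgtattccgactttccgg

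Of the 41 members, 36 had a promoter in that table, counted as 250 bases before the start and 50 after it. The GC box GGGCGG was found in 26 of them, which is 72.2%, against 41.8% of 21851 protein-coding promoters of the same length. CCAAT was found in 18 members, which is 50%, against 38% of all promoters. TGACNNNGC, the core of the element bound by Nfe2l1 and Nfe2l2, was in 8 members, which is 22.2%, against 12.5%. The core of the interferon response element, TTTC and after any 2 bases TTTC again, was in 5 members, which is 13.9%, against 3.7%, and a heat shock element, GAA, TTC and GAA each set apart by any 2 bases, was in none against 0.54%. Both strands were searched, and a match is a description of letters, not a bound site.

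Windows of 25 or 26 bases around 5 of these matches, with the motif in capitals, show the 2 elements in the catalytic subunits Psmb5 and Psmb6, in the activator gene Psme2 and in the inducible subunit gene Psmb10. Psmb2 is shown because it was higher in both catgut groups than in the treadmill group at an unadjusted p under 0.05 by edgeR. No other member called in both had a match to TGACNNNGC. Psmb5, Psmb6 and Psmd9 had a match and were called higher in neither catgut group.
Psmb5: tgaagctgTGACGTCGCggcgttgc
Psmb6: aaagagagTGACGGAGCgctttacg
Psmb2: cgcgccaaTGACCGGGCggtcgcat
Psme2: tggagagtGAAAGCGAAAgctggggc
Psmb10: gcaaaggcGAAAGTGAAAgagaagat

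The levels of the members, as mean FPKM over all 24 libraries, differed strongly between roles. FPKM is per length, so a level set beside another depends on the lengths given to both genes. Psma4, with 4173 to 8271 counts per library, had a mean of 24.2 FPKM. Psma1, with 4426 to 8514 counts, had a mean of 82.7 FPKM. Psmb4, a structural beta subunit, and Psmb6 had the highest means, 186 FPKM each, followed by Psma7, Psmb1, Psmc5, Psmb5 and Psmb7. The catalytic subunits were between 144 and 186 FPKM. The alpha ring ran from 24.2 to 175 FPKM, a ratio of 7.24 between subunits that stand in the complex in equal number. The part of the assigned lengths in this ratio was not tested. The lid subunits were between 26.2 and 94.1, and the ATPases between 28.9 and 151. The assembly chaperones of the base, Psmd5, Psmd9 and Psmd10, were between 3.54 and 13.2. Of the activators, Psme1, which forms PA28 with Psme2, was highest at 67.9 FPKM. Psme4 was at 30.3, Psme2 at 26.2 and Psme3 at 20.5 FPKM. The inducible Psmb10 had a mean of 9.16 FPKM.

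Across libraries the sum of FPKM over the tested members was between 2888 and 3237 in the control group, 2590 and 3405 in the treadmill group, 3111 and 3429 in catgut group 1, and 2970 and 3388 in catgut group 2. The treadmill group had the widest range, with replicate 2 at its top and replicates 6 and 4 at its bottom, 2590 and 2650 FPKM. In replicates 6, 4, 5, 3 and 1 of the treadmill group, 39, 36, 35, 34 and 30 members were below their own mean over the 24 libraries, while in treadmill replicate 2 it was 6. Of the 40 members, 32 had their lowest group mean in the treadmill group, as 29% of all genes tested did. The highest mean was in catgut group 1 for 21 members, against 17.7% of all genes, in catgut group 2 for 10, against 29.4%, in the control group for 8, against 32.2%, and in the treadmill group for 1, against 20.6%. The median coefficient of variation within a group was 12.5% in the treadmill group and between 8.3% and 9.14% in the others. The map of members by library shows the low columns of treadmill replicates 4 and 6.

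**Figure D1:**
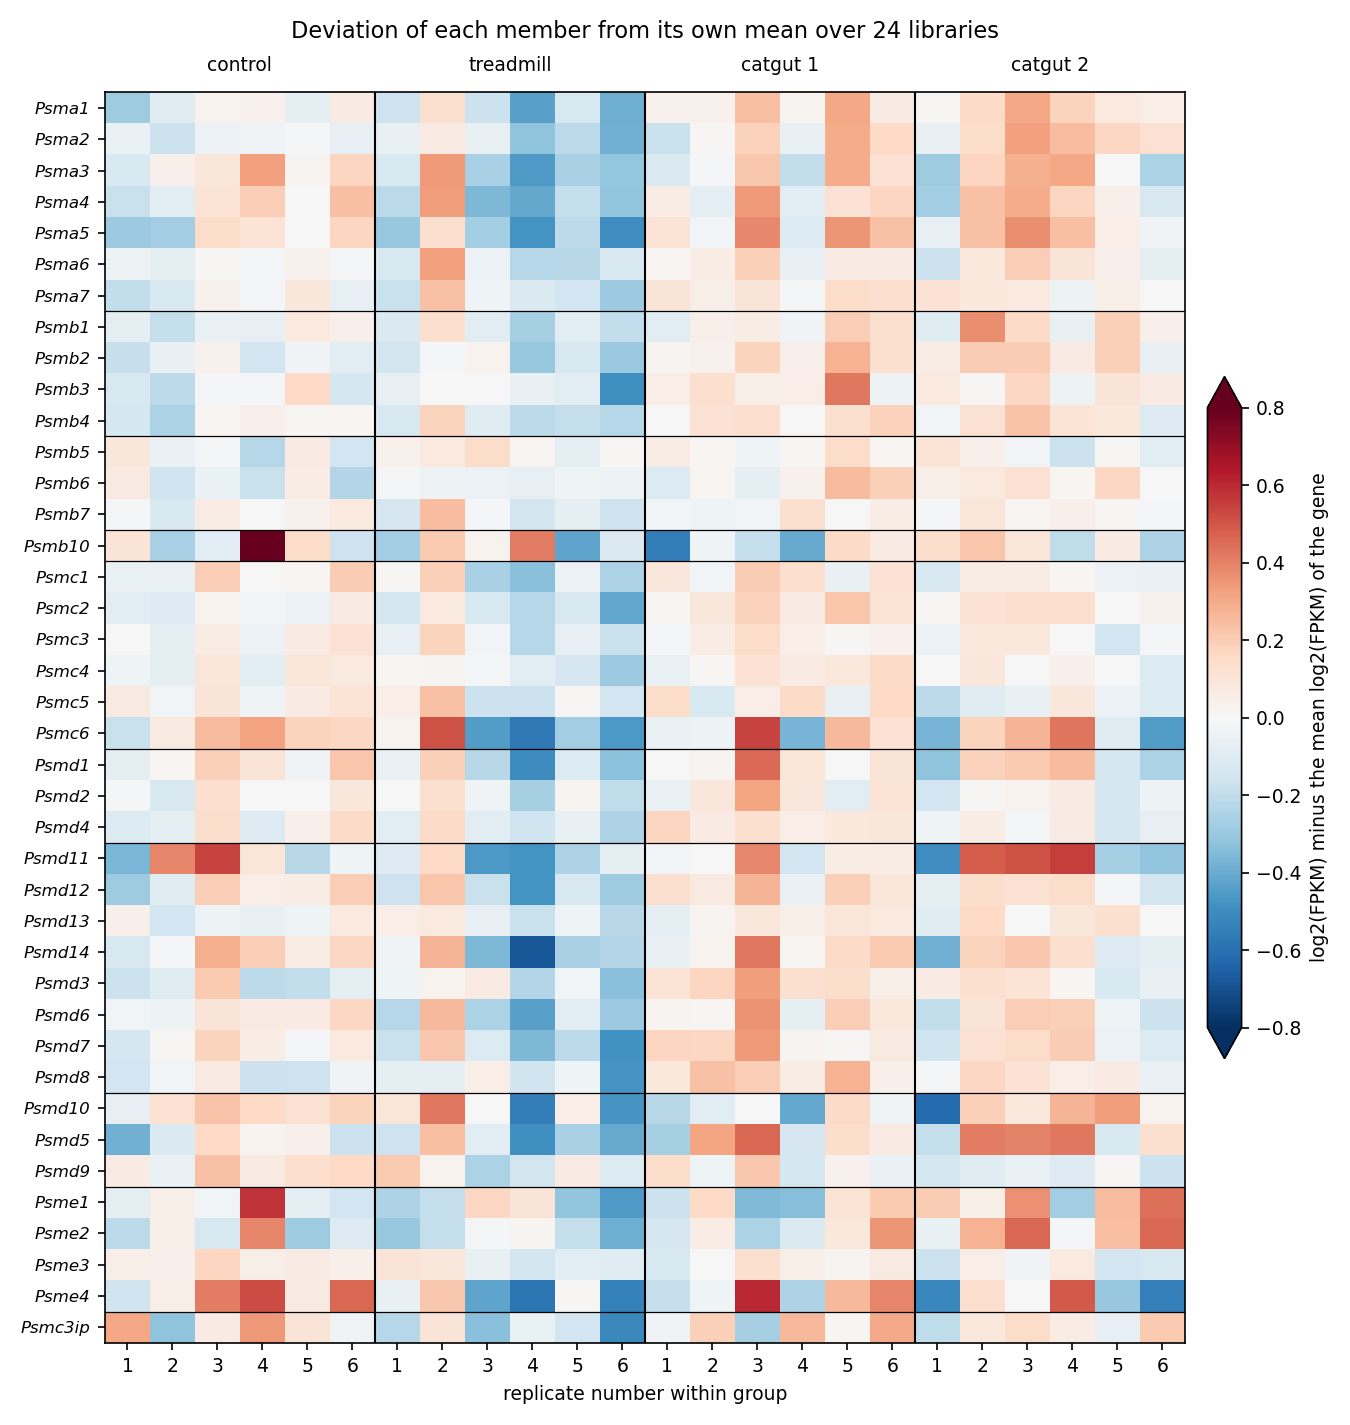
Deviation of log2(FPKM) of each of the 40 tested members (rows, by role) from its own mean over 24 libraries (columns, by group and replicate number), with the colour scale clipped at 0.8. Treadmill replicates 4 and 6 are low for most rows, treadmill replicate 2 is high, and Psmb10 stands out in control replicate 4.

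Treadmill against control, 8 members were lower and 0 higher at an unadjusted p under 0.05 by edgeR's quasi-likelihood test, where 5.08% of all genes tested were lower and 4.03% higher. By role they were 3 lid subunits (Psmd14, Psmd6, Psmd7), 2 alpha subunits (Psma3, Psma5), the ATPase Psmc6, the base subunit Psmd1 and the activator Psme4. Only 3 of 40 members had a positive log2 fold change, against 49.7% of all genes, and the median was −0.09 against −0.002 over all genes. Members varied together from library to library, so counts of members in this and the other comparisons are not counts of independent genes. The study's methods select genes by a fold change over 1.5 in either direction and a p under 0.05, taken here as the ratio of the group means of FPKM and edgeR's unadjusted p. None of the members met that rule, which 1.77% of all genes did as higher and 1.08% as lower. With Benjamini-Hochberg adjustment over all genes, 0 members had an adjusted p under 0.05 by edgeR or by DESeq2, against 0.0542% of all genes by edgeR.

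Psme4 encodes PA200, a single-chain activator. Its FPKM ran from 26.3 through a median of 34.9 to 42.1 in the control group and from 19.5 through 25 to 34.1 in the treadmill group. The groups overlapped, with all 6 treadmill libraries below the control median and 3 below every control library. Treadmill over control, it was at a log2 fold change of −0.42 (SE 0.135, edgeR adjusted p = 0.438), and the exact permutation test of log2(FPKM + 1) gave p = 0.0325. Psma3 ran from 26.7 to 36.5 FPKM in the control group, median 30.4, and from 21.2 to 36.8 in the treadmill group, median 24.2. Here 5 of 6 treadmill libraries were below every control library, and treadmill replicate 2 was the highest of the 12. This amounted to a log2 fold change of −0.23 (SE 0.0875, edgeR adjusted p = 0.492, exact permutation p = 0.0693). Psmd14, the lid enzyme that removes ubiquitin chains, ran from 23.6 through 27.9 to 31.5 FPKM in the control group and from 16.1 through 21.7 to 31.2 in the treadmill group. Its log2 fold change was −0.27 (SE 0.108, edgeR adjusted p = 0.517, exact permutation p = 0.0519).

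This count depended on single libraries. It fell to 1 without control replicate 6, to 2 without control replicate 3 and to 3 without treadmill replicate 3, 4 or 6, and was 5 without control replicate 2 or 5 or treadmill replicate 1. It was 9 without treadmill replicate 2 and 9 without the 3 libraries with Alb above 10 FPKM. With scaling by median ratios (RLE) and with limma on log2(FPKM + 1) it was 5. In each of these fits no member was higher. The share of all genes called in such fits, here and in the other comparisons, is not given. A shift of the members' count can thus not be told apart from a shift over all genes.

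Catgut group 1 against the treadmill group, 18 of 40 members were higher and 0 lower at an unadjusted p under 0.05 by edgeR's test, where 3.44% of all genes tested were higher and 3.49% lower. They were 7 of 8 lid subunits, 5 of 7 alpha subunits, 2 of 4 structural beta subunits, 1 of 6 ATPases, 1 of 3 other base subunits, 1 of 3 assembly chaperones and 1 of 4 activators, and none of the 3 catalytic subunits. Of the 40 members, 37 had a positive log2 fold change, against 47.8% of all genes, with a median of 0.19 against −0.01. By edgeR 0 members had an adjusted p under 0.05, against 0.0474% of all genes. None met the study's rule, which 1.13% of genes met as higher and 1.99% as lower, and the highest ratio of group means was 1.34. DESeq2, an alternative, gave adjusted p-values of 0.00125 for Psma5, 0.0166 for Psmc2 and 0.0229 for Psma1. The share of all genes passing adjustment by DESeq2 is not given here, and edgeR's share does not apply to these calls. Without any 1 library the count was between 15 and 19, and without the libraries with Alb above 10 FPKM it was 18.

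Psma5, an alpha subunit gene (ENSRNOG00000019868, chromosome 2, 211050360 to 211073714 on the plus strand in the table's build), led the comparison. It ran from 53.3 FPKM in treadmill replicate 6 through a median of 61.6 to 82.3 in treadmill replicate 2, and from 69.7 through 84.7 to 98.2 in catgut group 1. All 6 catgut libraries were above the treadmill median, and treadmill replicate 2 alone reached into their range. The control group ran from 61.4 to 84.6 with a median of 78.2. The log2 fold change of catgut group 1 over the treadmill group was 0.40 (SE 0.0841, 95% interval 0.22 to 0.58, edgeR adjusted p = 0.149), and the exact permutation test gave p = 0.0108.

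Psma1, another alpha subunit gene, ran from 60.8 through 73.1 to 89.8 FPKM in the treadmill group and from 83.5 through 85 to 102 in catgut group 1. The lowest catgut library was above 5 of the 6 treadmill libraries. Its log2 fold change was 0.28 (SE 0.0753, edgeR adjusted p = 0.297). The ATPase gene Psmc2 ran from 86.3 through 105 to 122 FPKM in the treadmill group and from 117 through 124 to 134 in catgut group 1, with 4 of 6 catgut libraries above every treadmill library. Its log2 fold change was 0.25 (SE 0.0699, edgeR adjusted p = 0.353), with p = 0.00649 by the exact permutation test. The lid gene Psmd7 ran from 66.8 through 81.8 to 108 and from 93.8 through 102 to 118 FPKM.

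**Figure D2:**
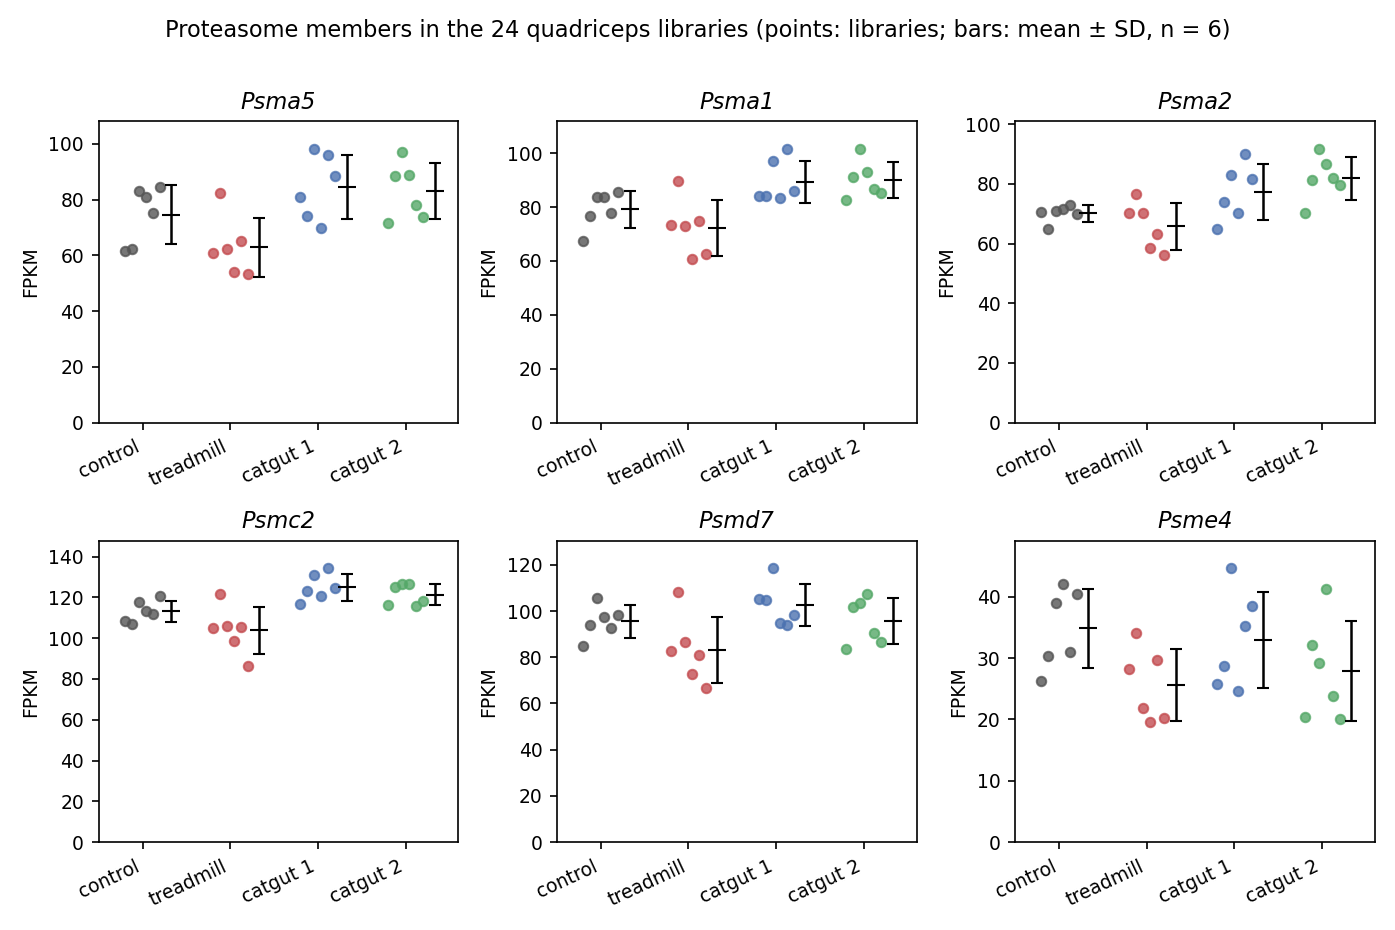
FPKM of Psma5, Psma1, Psma2, Psmc2, Psmd7 and Psme4 in each library of the 4 groups (points), with mean ± SD of the 6 libraries (bars). For Psma5 the treadmill median of 61.6 FPKM lies below all 6 libraries of each catgut group, and treadmill replicate 2 reaches 82.3.

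The 3 catalytic subunit genes did not pass the test. Psmb5, the chymotrypsin-like subunit, ran from 141 through 151 to 165 FPKM in the treadmill group and from 145 through 150 to 164 in catgut group 1. Its log2 fold change was −0.03, with a 95% interval from −0.22 to 0.17. The interval of Psmb6, the caspase-like subunit, was −0.14 to 0.28, and that of Psmb7, the trypsin-like subunit, −0.15 to 0.24. These intervals hold the median change of the members, 0.19, except that of Psmb5, whose upper bound is 0.17.

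Catgut group 2 against the treadmill group, 12 of 40 members were higher and 0 lower at an unadjusted p under 0.05 by edgeR's test, where 5.6% of all genes tested were higher and 5.14% lower. They were 4 of 7 alpha subunits, 3 of 4 structural beta subunits, 2 of 8 lid subunits, 1 of 6 ATPases, 1 of 3 assembly chaperones and the activator Psme2. A positive log2 fold change was found for 34 of 40 members, against 50.6% of all genes, with a median of 0.15 against 0.004. By edgeR 0 members had an adjusted p under 0.05, against 0.237% of all genes, and 0 met the study's rule, against 1.96% higher and 1.79% lower. DESeq2 gave adjusted p-values of 6.57e-05 for Psma5, 0.000998 for Psma2, 0.00233 for Psma1 and 0.0421 for Psmc2. Its share of all genes passing adjustment is not given here either, so these calls cannot be set beside edgeR's share. Without treadmill replicate 1, whose Hspa1b was in the control range, the count was 7. Without any other 1 library it was between 8 and 13, and without the libraries with Alb above 10 FPKM it was 12. In the same comparison 2 of 6 skeletal muscle markers were lower at an unadjusted p under 0.05. The summed FPKM of the 6 was 64658 to 72819 in catgut group 2 and 72988 to 87469 in the treadmill group, and its part in the result was not tested.

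In catgut group 2 Psma5 ran from 71.7 through a median of 83.2 to 97.2 FPKM. All 6 libraries were above the treadmill median and 3 above every treadmill library. Over the treadmill group, the log2 fold change was 0.37 (SE 0.0693, edgeR adjusted p = 0.0513). Psma2, an alpha subunit gene, ran from 56 through 66.7 to 76.5 FPKM in the treadmill group and from 70.1 through 81.6 to 91.8 in catgut group 2, with 5 of 6 libraries above every treadmill library. Its log2 fold change was 0.29 (SE 0.0636, edgeR adjusted p = 0.099). Psma1 ran from 82.8 through 88.9 to 102 FPKM in catgut group 2, at a log2 fold change of 0.29 (SE 0.0676, edgeR adjusted p = 0.111).

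Psmb6 was the only member whose libraries did not overlap between the 2 groups, with 186 to 208 FPKM in catgut group 2 and 178 to 183 in the treadmill group. Among all genes tested, 0.582% did not overlap and were higher. The exact permutation test gave its smallest possible p, 0.00216. By edgeR on the counts, the log2 fold change was 0.08 (SE 0.0865, 95% interval −0.10 to 0.27, adjusted p = 0.817). The treadmill group varied little for this gene, 180 ± 1.91 FPKM (SD, n = 6).

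**Figure D3:**
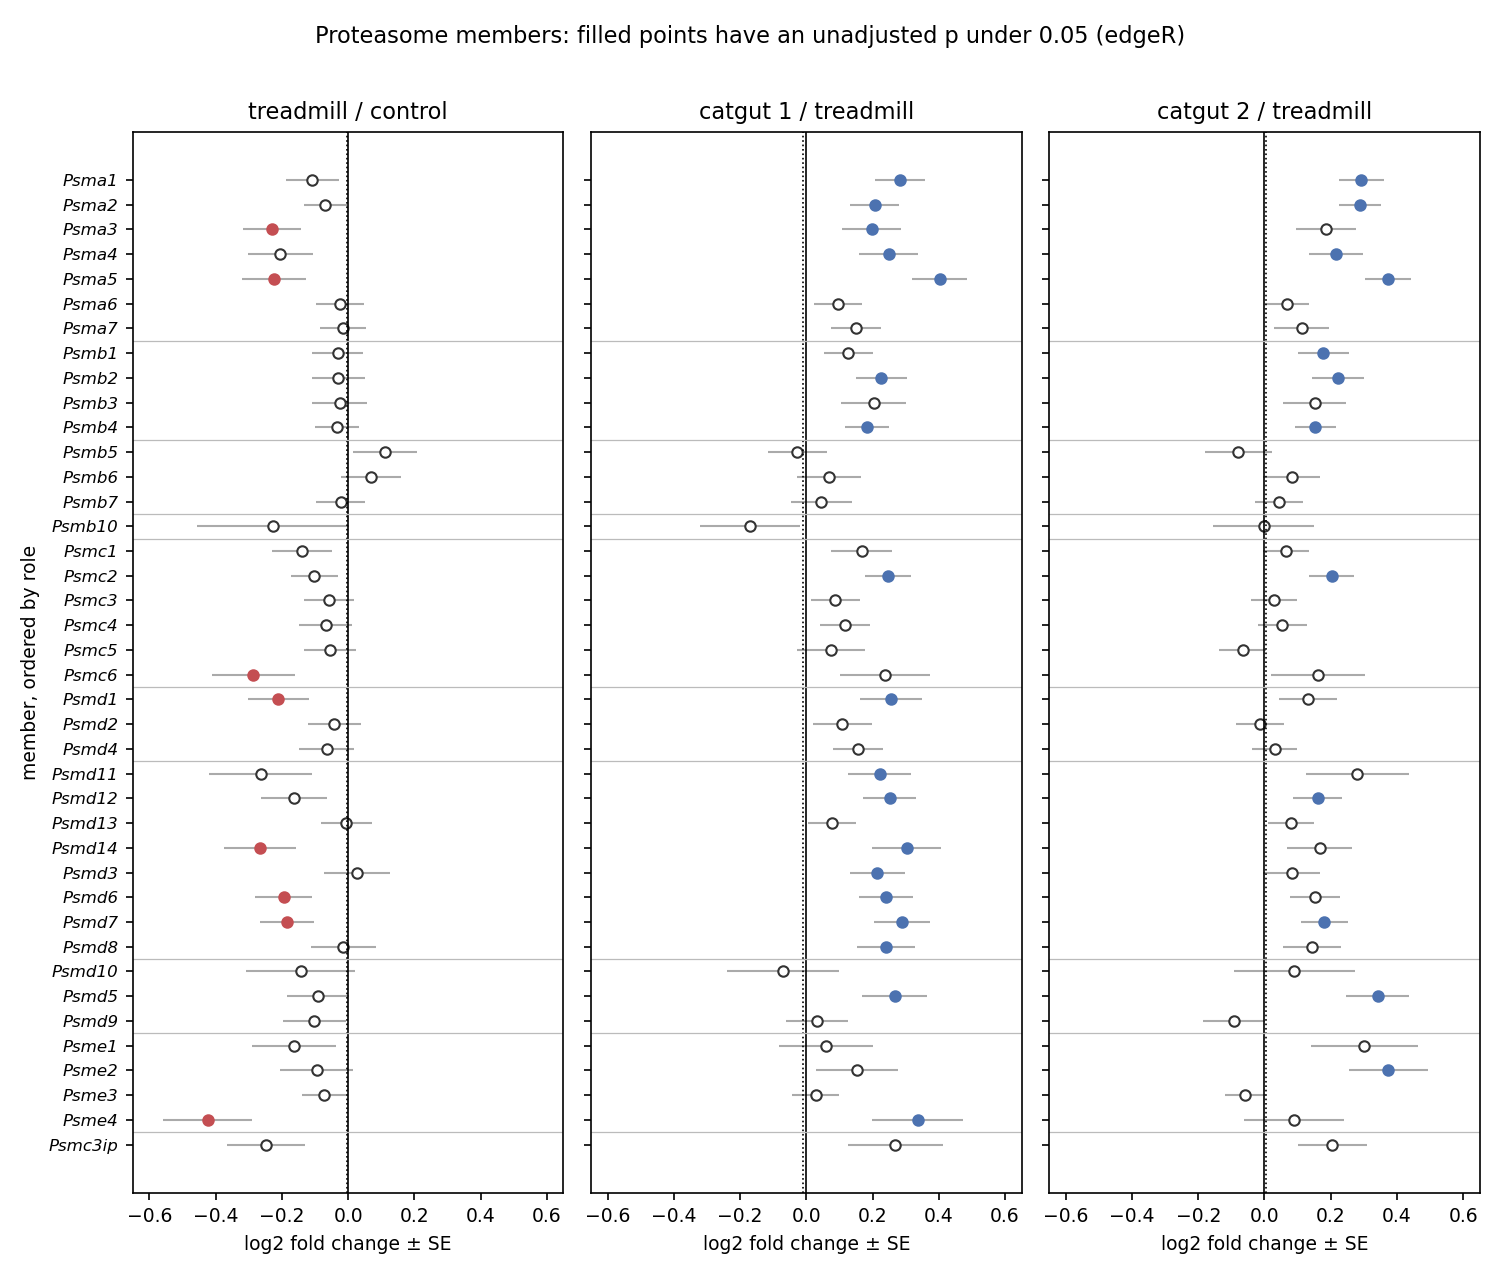
Log2 fold change ± SE of the 40 members, by role, for treadmill over control, catgut group 1 over treadmill and catgut group 2 over treadmill, with filled points at an unadjusted p under 0.05 by edgeR and the dotted line at the median of all genes. Lid and alpha subunits lie mainly left of 0 in the first panel and right of it in the others, and Psmb5 lies on the opposite side in each.

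The same treadmill libraries enter these 3 comparisons, so their values are set side by side with no count of shared members. Psma5 had log2 fold changes of −0.22 for treadmill over control, 0.40 for catgut group 1 over treadmill and 0.37 for catgut group 2 over treadmill. The values of Psmd7 were −0.18, 0.29 and 0.18 in the same order. At an unadjusted p under 0.05 by edgeR, both genes were lower in the first comparison and higher in the others. Genes picked in this way show opposite signs by that choice.

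Between the catgut groups, 0 of 40 members had an unadjusted p under 0.05 in either direction by edgeR or by DESeq2, where 1.87% of all genes tested were higher and 1.39% lower in catgut group 2, and limma called 1 lower. The median log2 fold change was −0.05, with 10 of 40 positive against 51.6% of all genes, and 0 passed adjustment against 0.00677%. The 6 ATPases and the 3 other base subunits were all negative, with medians of −0.07 and −0.13. The summed FPKM of the 14 tested 20S subunits was 1661 ± 89.3 in catgut group 1 and 1655 ± 85.2 in catgut group 2 (SD, n = 6), and that of the 17 tested 19S subunits 1413 ± 70.9 and 1331 ± 94.7. Leaving out catgut group 2 replicate 4 gave 3 members, 2 higher and 1 lower. Leaving out catgut group 1 replicate 2, 5 or 6 or catgut group 2 replicate 1 gave 1 member each.

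Against the control group, 4 members were higher and 0 lower in catgut group 1, where 4.78% of all genes were higher and 5.06% lower at an unadjusted p under 0.05 by edgeR. They were Psmd8, Psmb2, Psmd3 and Psma1. The lid gene Psmd8 ran from 56.5 to 66.8 FPKM in the control group and from 65.5 to 77.1 in catgut group 1, a log2 fold change of 0.23 (SE 0.0839, edgeR adjusted p = 0.426). The count was 2 without control replicate 1 or 4, 1 without catgut group 1 replicate 4, and 7 without control replicate 6 or catgut group 1 replicate 3. In catgut group 2, 5 members were higher, Psma2, Psma1, Psmb2, Psmd5 and Psme2, and 2 lower, Psmd9 and Psme4, where 8.04% and 8.4% of all genes were. Psma2 was at 70.2 ± 2.77 FPKM in the control group and 81.9 ± 7.29 in catgut group 2 (SD, n = 6), a log2 fold change of 0.22 (SE 0.0606, edgeR adjusted p = 0.124). Psmd9, a chaperone of base assembly, was at 14.1 ± 0.948 and 12.3 ± 0.536 FPKM, a log2 fold change of −0.20 (SE 0.0834, edgeR adjusted p = 0.26). These 7 calls became 2 without control replicate 1 or catgut group 2 replicate 3, 3 without catgut group 2 replicate 6, and 4 without control replicate 3 or catgut group 2 replicate 1 or 2. Without control replicate 4 they were 2 higher and 3 lower. By edgeR 0 members passed adjustment, against 0.0203% of all genes in catgut group 1 and 0.508% in catgut group 2. By DESeq2 Psma2 did in catgut group 2 (adjusted p = 0.0246), with DESeq2's share of all genes not given here.

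Members varied together from rat to rat. Over deviations of log2(FPKM + 1) from the group means in 24 libraries, the median pairwise r was 0.53 among 39 members, 0.58 in the 20S core and 0.63 in the 19S particle, against 0.14 between all tested genes. Libraries share depth and composition, so these correlations are descriptions. The members most like the mean of the other subunits were Psmc2 (r = 0.90), Psmd6 (0.90), Psma5 (0.90), Psmd12 (0.89) and Psma1 (0.89). The lowest values were those of Psmb10 (r = 0.09), the catalytic subunits Psmb6 (0.08) and Psmb5 (−0.03), and Psme2 (0.02) and Psme1 (−0.11). The third catalytic subunit, Psmb7, had r = 0.71.

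**Figure D4:**
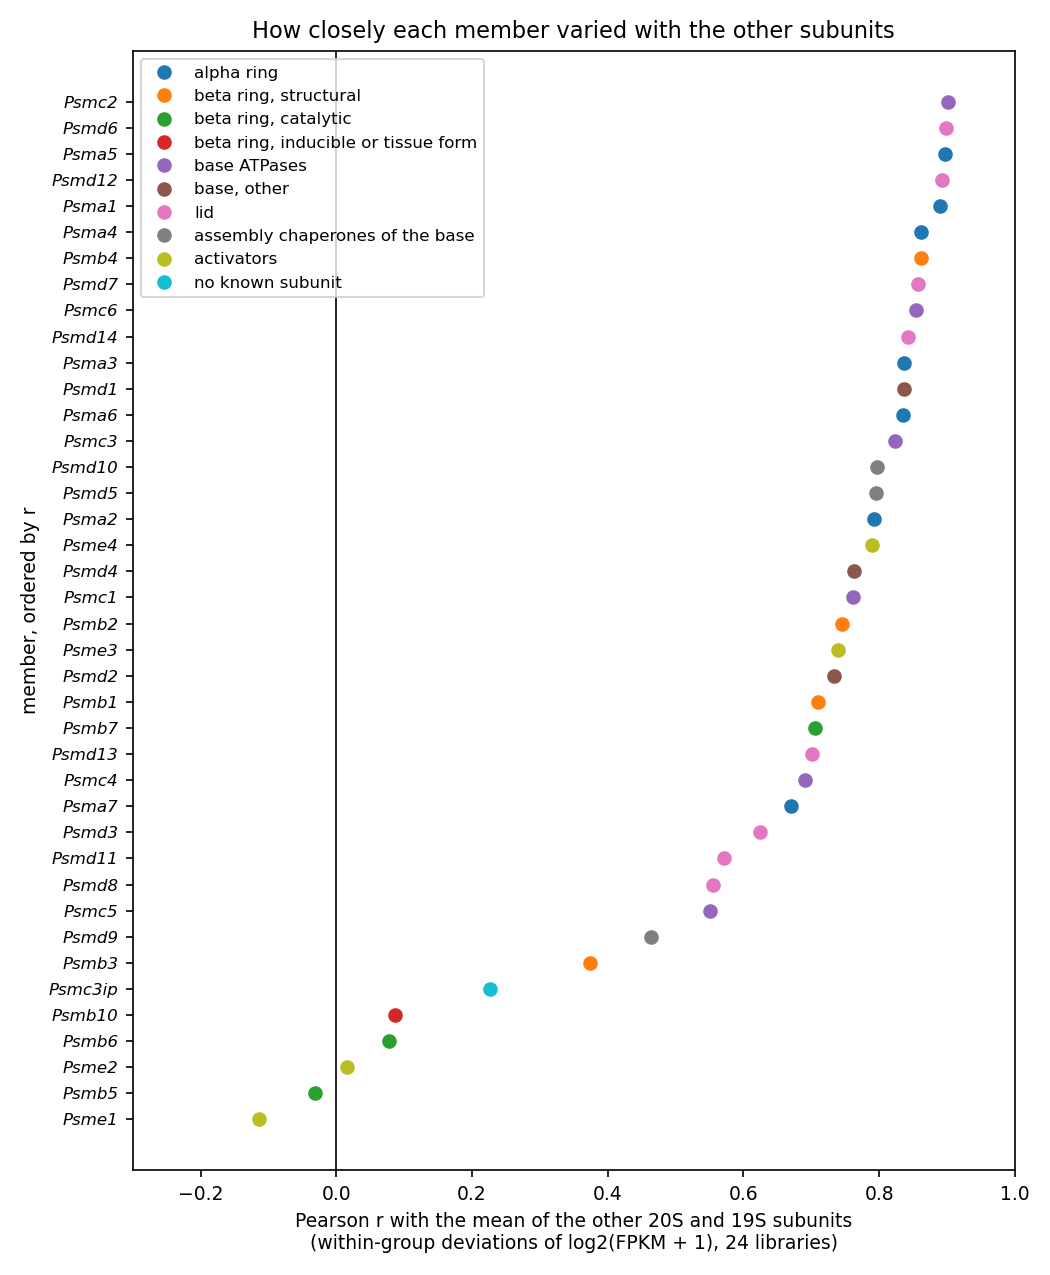
Pearson r of each member with the mean of the other 20S and 19S subunits (x axis), over within-group deviations of log2(FPKM + 1) in 24 libraries, by role (colour). Most alpha, lid and ATPase subunits lie between 0.55 and 0.90, while Psmb5, Psmb6, Psmb10, Psme1 and Psme2 lie near 0.

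Psmb8, Psmb9 and Psmb10 replace the catalytic subunits in the immunoproteasome, and Psme1 with Psme2 forms PA28, its usual cap. Over the same deviations, Psmb8 had r = 0.89 with Psmb9 and 0.88 with Psmb10, and Psme1 had r = 0.85 with Psme2. Control replicate 4 was the highest of the 24 libraries for Psmb8 (13.8 FPKM), Psmb9 (12.7), Psmb10 (22.2) and Psme1 (99.7). The other 5 control libraries of Psmb10 ran from 7.37 to 9.78 FPKM. Psmb10 was at 8.82 ± 1.91 FPKM in the treadmill group, 8.02 ± 1.48 in catgut group 1 and 8.98 ± 1.16 in catgut group 2 (SD, n = 6).

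Psme2 was the interferon-linked member counted as higher than in the treadmill group. It ran from 19.6 through 22.6 to 26.2 FPKM in the treadmill group and from 24.7 through 30.8 to 35.5 in catgut group 2, with 4 of 6 libraries above every treadmill library. Its log2 fold change was 0.37 (SE 0.12, edgeR adjusted p = 0.257, exact permutation p = 0.0108). For Psme1 the value was 0.30 with a 95% interval from −0.05 to 0.65. Psme1 and Psme2 lie 6610 bases apart on chromosome 15 by the table's coordinates.

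**Figure D5:**
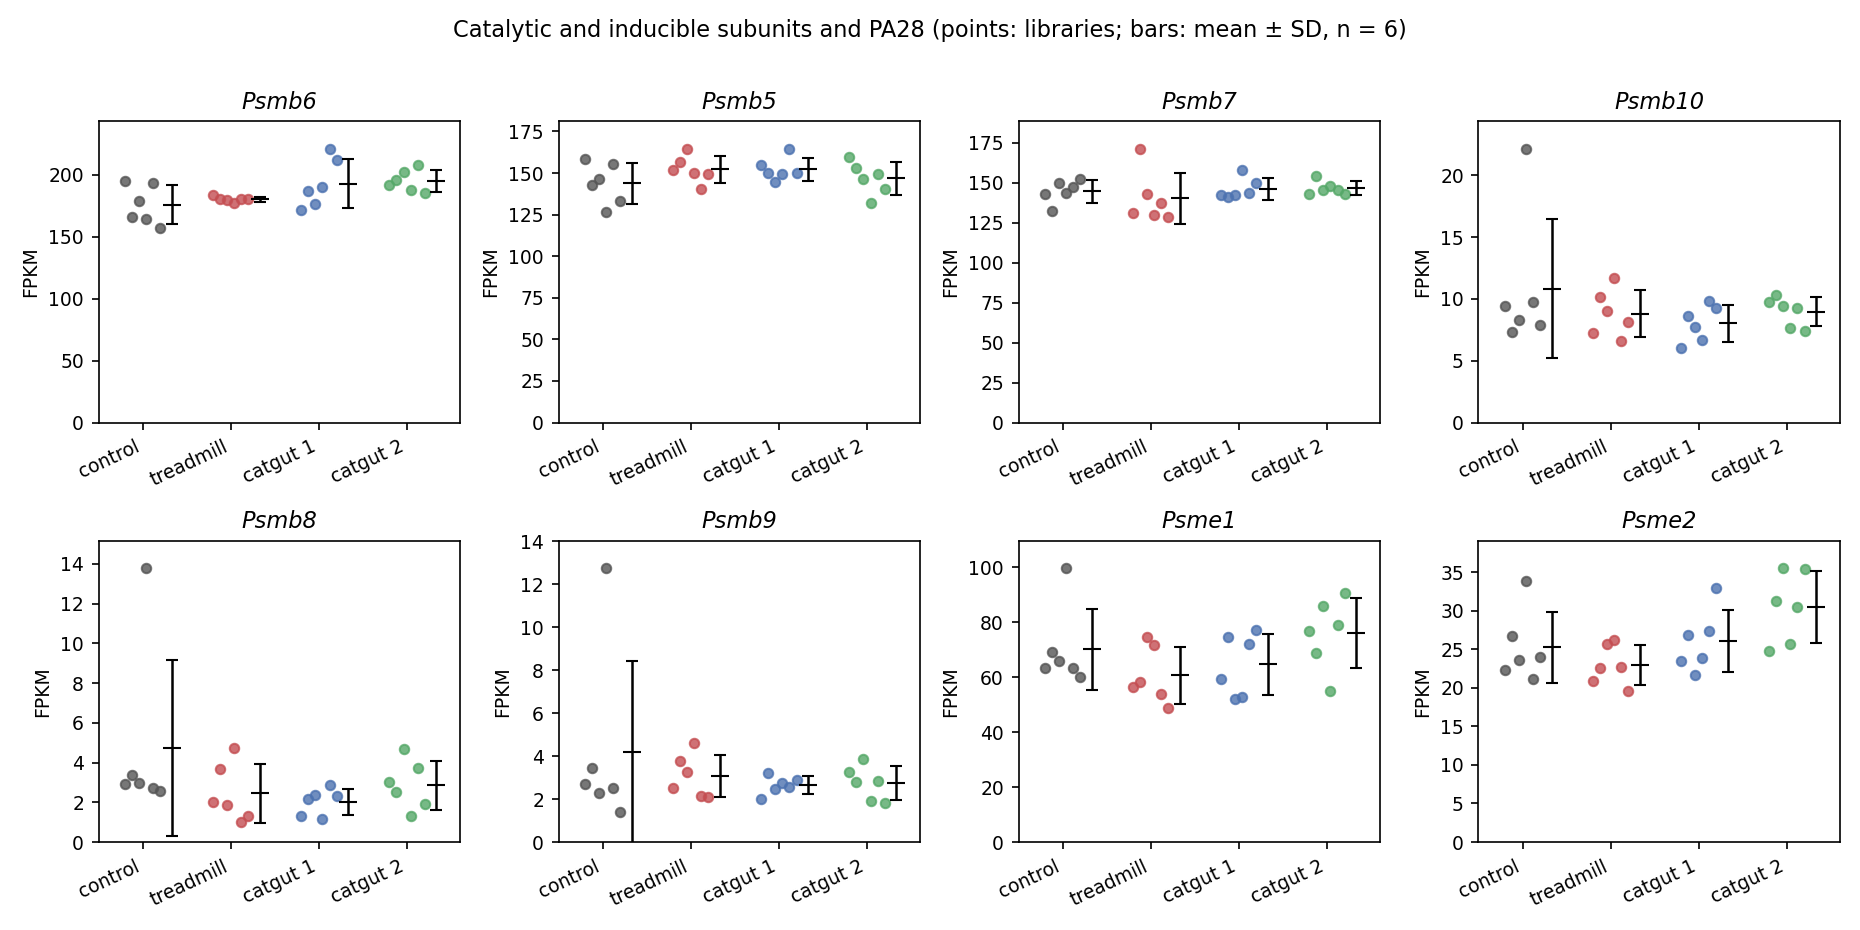
FPKM of the catalytic genes Psmb6, Psmb5 and Psmb7, the inducible genes Psmb10, Psmb8 and Psmb9, and the PA28 genes Psme1 and Psme2 in each library (points), with mean ± SD of 6 libraries per group (bars). Control replicate 4 lies far above the other control libraries for Psmb8, Psmb9, Psmb10 and Psme1.

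Of 8 genes for the control of subunit genes, calls at an unadjusted p under 0.05 by edgeR went both ways. Treadmill against control, 1 was higher and 1 lower, where 4.03% and 5.08% of all genes were. Catgut group 1 against treadmill, 2 were higher and 1 lower, where 3.44% and 3.49% of all genes were. Catgut group 2 against treadmill, 1 was higher and 1 lower, where 5.6% and 5.14% of all genes were. Nfe2l1 and Nfe2l2 encode transcription factors that drive subunit genes. Nfe2l2 was at 14.3 ± 3.72 FPKM in the treadmill group, 18.5 ± 3.29 in catgut group 1 and 18 ± 3.56 in catgut group 2 (SD, n = 6), at log2 fold changes of 0.35 (SE 0.113, edgeR adjusted p = 0.438) and 0.31 (SE 0.115, adjusted p = 0.329). Nfe2l1 was lower in the treadmill than in the control group, 93.8 ± 15.9 against 123 ± 21.5 FPKM, at −0.36 (SE 0.155, edgeR adjusted p = 0.526). Its log2 fold changes over the treadmill group were 0.07 and 0.01 in the catgut groups. Ddi2, also of the 8, was at 13.6 ± 4.25 FPKM in the treadmill group. In catgut groups 1 and 2 Ddi2 was at 10.6 ± 2.46 and 9.42 ± 2.2 FPKM. Keap1, another of the 8, was at 22.7 ± 2.35, 26.9 ± 1.79 and 24.3 ± 1.7 FPKM in the same order. Pomp, the chaperone that assembles the 20S core, had unadjusted p-values of 0.665, 0.69 and 0.716 by edgeR in the 3 comparisons with the treadmill group.

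At an unadjusted p under 0.05 by edgeR, 3 of 13 genes for assembly and associated factors were lower in the treadmill than in the control group, where 5.08% of all genes were: Usp14, Uchl5 and Ecpas, of which the first and second remove ubiquitin at the 19S particle. In each catgut group 1 of the 13, Txnl1, was higher than in the treadmill group, where 3.44% of all genes were in catgut group 1 and 5.6% in catgut group 2. Of 8 delivery factors, 1, Ufd1, was lower in the treadmill than in the control group, against the same 5.08% of all genes. In each catgut group 2 of the 8, Vcp and Ubqln2, were higher than in the treadmill group, against the same 3.44% and 5.6%. Vcp encodes the ATPase that extracts ubiquitinated proteins, at 129 ± 13.9 FPKM in the treadmill group, 161 ± 22.9 in catgut group 1 and 158 ± 18.6 in catgut group 2. Across libraries Txnl1, Vcp and Usp14 followed the subunits (r = 0.83, 0.79 and 0.79).

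The muscle ubiquitin ligase gene Fbxo32 was lower in the second catgut group than after treadmill alone, 30.6 ± 11.3 against 75.4 ± 44.9 FPKM, at a log2 fold change of −1.26 (SE 0.312, edgeR adjusted p = 0.14). It was the 1 of 7 muscle ligases lower at an unadjusted p under 0.05 by edgeR, where 5.14% of all genes were lower. The other 6 did not pass the test in this comparison. Trim63, another of them, was at 145 ± 42.9 FPKM in the treadmill group and 169 ± 61.2 in catgut group 2. All 7 cytosolic heat shock genes were higher in both catgut groups than in the control group at an unadjusted p under 0.05 by edgeR, where 4.78% of all genes were in catgut group 1 and 8.04% in catgut group 2. The adjusted p was under 0.05 for 2 of the 7 in catgut group 1 and for 4 in catgut group 2, against 0.0203% and 0.508% of all genes. In the treadmill group 3 of the 7 were higher than in the control group at an unadjusted p under 0.05, where 4.03% of all genes were. Between a catgut group and the treadmill group 0 of the 7 passed that level. Of all genes, 3.44% were higher and 3.49% lower in catgut group 1, and 5.6% and 5.14% in catgut group 2.

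RefSeq lists 46 pseudogenes named for 18 of the members, 8 of them for Psmb3 and 5 for Psma6. How the authors' counting placed reads shared with such copies is not given in the sources used here, so the levels of those 18 members are uncertain to that extent.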

How the data were processed

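RNA-seq was made from poly(A) RNA of quadriceps muscle, 1 library per rat, 24 in 4 groups. The authors deposited a table with a count and an FPKM value per gene and library, FPKM being the authors' scaling to transcript length and mapped fragments. Per the labels' processing notes the tools were HISAT2 2.0 and StringTie 1.3.0, with no role stated, and the build is not given in the sources used here. The deposited counts are whole numbers, with 23.3% at 0 and 4 and 8 the commonest values above 0, so they may have been worked back from coverage. The labels' extraction protocol speaks of adipose tissue.

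The 14772 genes whose FPKM averaged 0.1 or more were tested, in fits of the 12 libraries of 2 groups, by the quasi-likelihood test of edgeR 4.0.16 (R 4.3.3) with TMM scaling, two-sided, with Benjamini-Hochberg adjustment over all genes. A 95% interval is the log2 fold change with its SE and the t quantile at the test's degrees of freedom. Exact permutation tests were two-sided over 924 arrangements of log2(FPKM + 1). Where p-values rest on 6 libraries per group, they measure the spread between these libraries only. DESeq2 1.42.0, limma 3.58.1, other scaling and filters, the Y-linked level as a covariate, leaving out libraries and a replicate block were alternatives. The fits were also run on simulated counts for treadmill against control, with genes varying independently and changes larger than those of the members. That run does not cover small changes in genes that vary together. The members, the lists and the rules were chosen with earlier results of these data known. In each comparison up to 3 members per direction, those with the smallest unadjusted p under 0.05, were followed over the alternatives. They got full statistics in the 3 comparisons with the treadmill group, and only some of them did in the others. Mean levels of the catalytic genes, Psmb10 and the activator genes were given whatever their test. Figures were drawn with matplotlib 3.10.9.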

Additional observations from a re-analysis of the deposited data

Results flagged for a closer look

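In 14 of 160 groups of 6 libraries (40 members in 4 groups), the highest or lowest library lay far from the other 5, past Dixon's critical value for 6 libraries. Chance gives about 1 in 20 groups, and members vary together, so the flags are not independent.

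Treadmill replicate 2 was high for Psma6 (171 FPKM against 116 to 132 in the other 5), Psma3 (36.8 against 21.2 to 26.6), Psmb7 (171 against 128 to 143), Psma4 (30.2 against 18 to 20.9) and Psmb4 (210 against 159 to 173). Catgut group 1 replicate 3 was high for Psmd11 (34.2 FPKM) and Psmd1 (73.7). Control replicate 4 was high for Psme1 (99.7 FPKM) and Psmb10 (22.2). Control replicate 3 was high for Psmd3 (78 FPKM) and Psme3 (23.1), and control replicate 2 low for Psma2 (64.9). Psmb3 was low in treadmill replicate 6 (63.8 FPKM) and high in catgut group 1 replicate 5 (120).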

How the results depend on the processing

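The counts of members at an unadjusted p under 0.05 held the same direction under every alternative run in the 3 comparisons with the treadmill group. Treadmill against control, 8 became 5 with RLE scaling, 5 with limma at either pseudocount, 1 or 0.1, and 4 with the replicate block, and 1 to 9 without any 1 library. Catgut group 1 against treadmill, 18 became 10 with the replicate block and 15 to 19 without any 1 library. Catgut group 2 against treadmill, 12 became 7 to 13 without any 1 library and 8 with the replicate block. Catgut group 2 against catgut group 1, 0 became 1 with limma at either pseudocount and 0 to 3 without any 1 library. Catgut group 1 against control, 4 became 8 in 1 fit over all 4 groups, 2 with the replicate block and 1 to 7 without any 1 library. Catgut group 2 against control, 7 became 2 to 7 without any 1 library, and the balance of higher and lower members turned without control replicate 4, to 5 members. The cause was not tested. The other counts moved by less than 1.5 times. Shares of all genes called in each alternative are not given here, so shifts of the whole fit are not separated from shifts of the members.

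Replicate numbers carry no stated pairing: over 36 same-numbered pairs the deviations had r between −0.23 and 0.23, so the block is an alternative only. Over the alternatives, the adjusted p of Psma5 ranged from 0.00125 to 0.491 in catgut group 1 and from 6.57e-05 to 0.238 in catgut group 2 against treadmill. For the members followed over the alternatives, 347 results kept their side of the threshold, 44 lost it and 0 reversed. The median change of the members kept its sign except catgut group 2 against control, from −0.03 to 0.04. In the 1 fit over all 4 groups, Psma2 had an adjusted p of 0.0462 in catgut group 2 against treadmill. The share of all genes passing in that fit is not given here. With 6 libraries per group, an SE near 0.09 on the log2 scale limits what was detectable.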
